A study of Danio rerio with 10 samples.

Results

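Cytochrome P450 genes other than the dioxin-induced family 1 and those of steroid, retinoic acid and sterol-ring metabolism were examined in the testes of adult zebrafish. They were taken from the array's probe-to-gene table as every single symbol that starts with cyp and a digit, leaving out cyp1a, cyp1b, cyp1c, cyp1d, cyp11, cyp17, cyp19, cyp21, cyp26 and cyp51. The brightest probe over the arrays stood for each gene, which gave 61 genes of 24 subfamilies among 19260 genes measured. Another 5 probes with P450 symbols were not analysed here, 4 because the table gives each a further symbol (those of cyp8b1.1, cyp2aa3, cyp2k8 and cyp27c1) and that of cyp2v1 because its symbol is entered 2 times. The samples were testes of wildtype AB males aged 1 year, 5 exposed to TCDD (2,3,7,8-tetrachlorodibenzo-p-dioxin, which activates the aryl hydrocarbon receptor) and 5 to its solvent DMSO. Exposure was by water, at 50 pg/ml TCDD or with DMSO alone, for 1 h at 3 weeks and for 1 h at 7 weeks after fertilization, so that adult tissue was compared long after the agent was given. Each sample was hybridised to 1 array and numbered as a biological replicate in the labels, which do not say whether tissue of several fish was pooled. All values below are the authors' deposited normalized values, read as log2 from their range because no base is stated, and signals of different probes are not compared as amounts of RNA. The p-values below set a group difference against the spread between these samples, which may not be the spread between single fish.

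P450 enzymes are heme proteins that insert an oxygen atom into fatty acids, sterols, vitamins and foreign compounds. Most of those in families 2, 3 and 4 sit in the endoplasmic reticulum, take electrons from P450 oxidoreductase and are best known from liver and intestine, whereas the family 24 and 27 enzymes are mitochondrial and take them from ferredoxin. In fish, family 2 has expanded into subfamilies with no mammalian counterpart, and cyp3a65 is the gene whose transcripts in the larval zebrafish gut are raised by TCDD and by ligands of the pregnane X receptor.

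The arrays differed in the levels of markers of other tissues. The mean levels of germ cell, Sertoli and Leydig markers over the arrays were 8.69 or more, 9.42 or more and 7.68 or more. The lowest mean of each of the 3 lists was in DMSO 1, which also had the lowest mean correlation with the other arrays (0.79, against 0.90 to 0.94). The germ cell means of the other arrays ran from 10.48 to 11.35. Their Sertoli means ran from 9.63 to 10.71 and their Leydig means from 8.82 to 9.60. For intestine, 16 of 21 listed markers were measured, and their mean reached 11.08 in DMSO 1. It was 10.83 in TCDD 2, followed by TCDD 3 at 9.22 and TCDD 4 at 7.46, while the lowest 6 arrays spanned 6.47 to 6.80. These arrays did not share all of the markers. The peptide transporter gene slc15a1b of the anterior intestine was at 7.06, 12.06, 10.35, 6.71 and 6.77 in TCDD 1 to 5 and 10.11, 6.84, 6.65, 6.84 and 6.87 in DMSO 1 to 5, and the ileal bile acid binding protein gene fabp6 at 6.17, 13.34, 7.34, 11.25 and 6.35 in TCDD 1 to 5 and 13.97, 7.08, 6.40, 6.41 and 6.95 in DMSO 1 to 5. The mean of 17 measured hepatocyte markers of 25 listed was 10.90 in TCDD 5, 8.76 in TCDD 2 and at most 7.98 elsewhere. The mean of 16 measured exocrine pancreas markers of 21 listed was highest in DMSO 1 too (11.88), followed by TCDD 2 (10.87) and TCDD 4 (10.25). The adipose marker mean was also highest in DMSO 1 (7.89), followed by TCDD 2 (7.57). Kidney tubule and macrophage and granulocyte means were highest in TCDD 2 (8.39 and 8.34), followed by DMSO 1 (8.25 and 8.08). By group, 17 of 17 hepatocyte and 15 of 16 intestine markers lay higher in TCDD, against 54.6% of all genes, with median differences of 1.08 and 0.61. Of these markers, 4 and 0 had an unadjusted limma p under 0.05, against 2.48% of all genes. Sertoli markers lay higher in 10 of 10 and Leydig markers in 9 of 10, with 2 of each list at that level. Germ cell markers lay higher in 10 of 10, with 0 at that level. These counts include DMSO 1, the lowest array for the mean of each of the 3 lists. The germ cell mean was 8.69 in DMSO 1, 10.74 to 11.35 in DMSO 2 to 5 and 10.48 to 11.27 in TCDD. Skeletal muscle markers lay lower in 17 of 19, with 6 at that level. The part of these tissues in the P450 values was not tested. A fit with the hepatocyte and intestine means as covariates is given below. In bulk tissue, fewer cells of a type and less RNA per cell cannot be told apart.

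The P450 genes varied more over the 10 arrays than most genes. Their median standard deviation was 0.51, against 0.28 for all genes, and 27 of 61 (44.3%) were in the 10% of all genes with the largest standard deviation. DMSO 1 held the highest value of 40 P450 genes (65.6%), while it held the highest value of 22.9% of all genes. In 12 of the 40, DMSO 1 exceeded every other array by at least 1 on the log2 scale. With DMSO 1 set aside, TCDD 2 was the highest of the remaining 9 arrays for 26 P450 genes (42.6%, against 12.6% of all genes) and TCDD 5 for 10 (16.4%, against 6.61%), and the median standard deviation was 0.35 against 0.24. These counts describe the arrays and carry no test. The signals were low for many of the genes. Of the 61, 29 lay below the median of all probes on the array, while 18.5% of all genes did. A difference in a dim probe can be hidden by background.

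**Figure D1:**
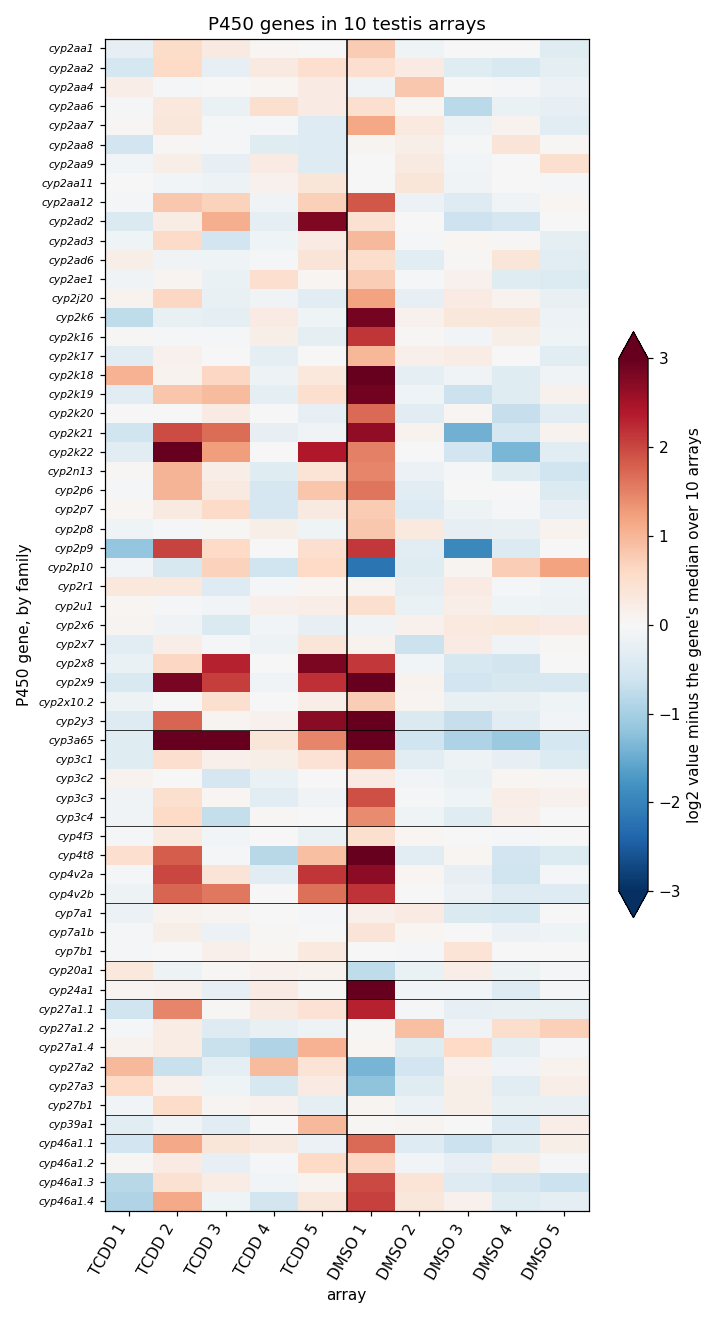
Each of the 61 P450 genes (rows, by family) in each of the 10 arrays (columns, TCDD left and DMSO right of the line), as the log2 value minus the gene's median over the arrays, with colours saturating at -3 and 3. DMSO 1 is the highest array for 40 genes, and cyp2p10, cyp27a2, cyp27a3 and cyp20a1 are lowest there.

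**Figure D2:**
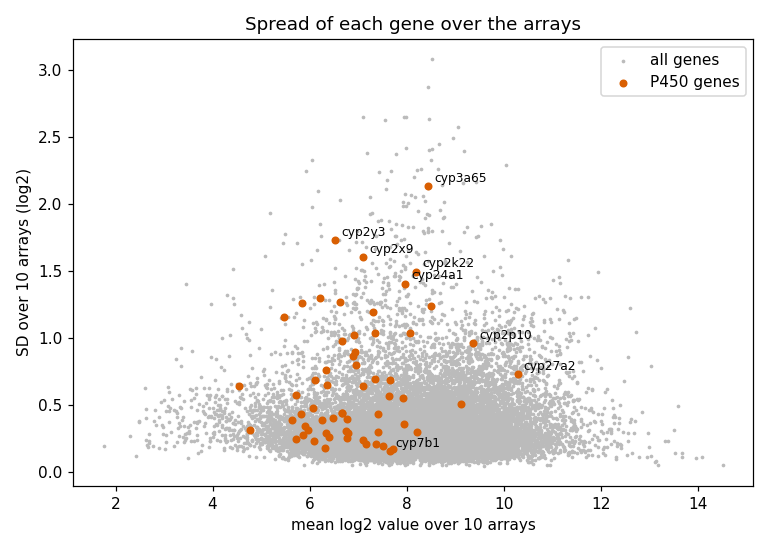
Standard deviation over the 10 arrays against mean log2 value for the 61 P450 genes (orange) and all 19260 genes (grey). The P450 genes reach 2.13 for cyp3a65 and go down to 0.16 for cyp7b1, with a median of 0.51 against 0.28 for all genes.

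In 4 genes (6.56%) the pattern was the opposite, with the lowest value of all arrays in DMSO 1, while 28.8% of all genes were lowest there. P450 genes were thus lowest in DMSO 1 less often than genes in general. The germ cell, Sertoli and Leydig marker means were lowest in DMSO 1 too. The 4 genes were cyp27a2 and cyp27a3, whose family encodes mitochondrial sterol side-chain hydroxylases, cyp20a1, a P450 without an assigned substrate, and cyp2p10. cyp27a2 (probe 13211793) was at 11.30, 9.66, 10.06, 11.29 and 10.73 in TCDD 1 to 5 and 8.95, 9.75, 10.47, 10.22 and 10.45 in DMSO 1 to 5. Its 2 highest values were in TCDD 1 and TCDD 4, while TCDD 2 lay below 4 and TCDD 3 below 3 of the DMSO arrays. The means (± SD, n = 5 each) were 10.61 ± 0.74 in TCDD and 9.97 ± 0.64 in DMSO, and TCDD minus DMSO was 0.64 (95% CI -0.21 to 1.49). cyp27a3 ranged from 8.04 to 9.85. cyp20a1 was at 8.58, 8.10, 8.31, 8.39 and 8.38 in TCDD 1 to 5 and 7.51, 8.06, 8.47, 8.12 and 8.22 in DMSO 1 to 5, and 4 of its TCDD arrays lay above 4 of its DMSO arrays, with DMSO 3 the second highest of all. The difference was 0.27 (95% CI -0.11 to 0.66). cyp2p10 was at 9.32, 8.94, 10.10, 8.81 and 10.00 in TCDD 1 to 5 and 7.22, 9.04, 9.50, 10.15 and 10.61 in DMSO 1 to 5. Its 2 highest arrays were DMSO 5 and DMSO 4, and its difference of 0.13 (95% CI -1.11 to 1.37) became -0.39 (95% CI -1.19 to 0.40) without DMSO 1. The signals of these 4 probes lay at percentiles of 76.0 to 96.1 among all probes, above the median.

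The gene with the largest spread was cyp3a65 (probe 12952147), a member of the subfamily that holds the main drug-metabolising enzymes of mammalian liver and gut. It was at 7.11, 10.88, 10.56, 7.84 and 8.93 in TCDD 1 to 5 and 12.39, 6.88, 6.56, 6.37 and 6.95 in DMSO 1 to 5. The 3 arrays with values above 10 were the 3 in which slc15a1b exceeded 10, and TCDD 5, with the highest hepatocyte mean, came next. Among the other 6 arrays, TCDD 1 and TCDD 4 lay above each of the 4 DMSO arrays. The match with intestine markers was partial. slc15a1b was highest in TCDD 2 and cyp3a65 in DMSO 1, and fabp6 exceeded 10 in TCDD 4 but not in TCDD 3. The part of other tissues in the cyp3a65 values was not tested. Over all arrays the means (± SD, n = 5 each) were 9.07 ± 1.65 in TCDD and 7.83 ± 2.56 in DMSO, and the difference of 1.24 (95% CI -1.36 to 3.84) was smaller than the spread within either group. The 4 cyp3c genes, a subfamily of fish that lies in one run of neighbouring genes, were flatter. cyp3c1 was at 7.44, 8.31, 7.95, 7.98 and 8.25 in TCDD 1 to 5 and 9.19, 7.50, 7.66, 7.56 and 7.41 in DMSO 1 to 5, and cyp3c3 at 6.79, 7.38, 6.97, 6.59 and 6.79 in TCDD 1 to 5 and 8.83, 6.84, 6.76, 7.09 and 7.03 in DMSO 1 to 5. Each of the 4 was highest in DMSO 1, by 0.88 for cyp3c1, 1.46 for cyp3c3, 0.82 for cyp3c4 and 0.16 for cyp3c2, and their differences were 0.12, -0.41, -0.25 and -0.14 in that order.

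**Figure D3:**
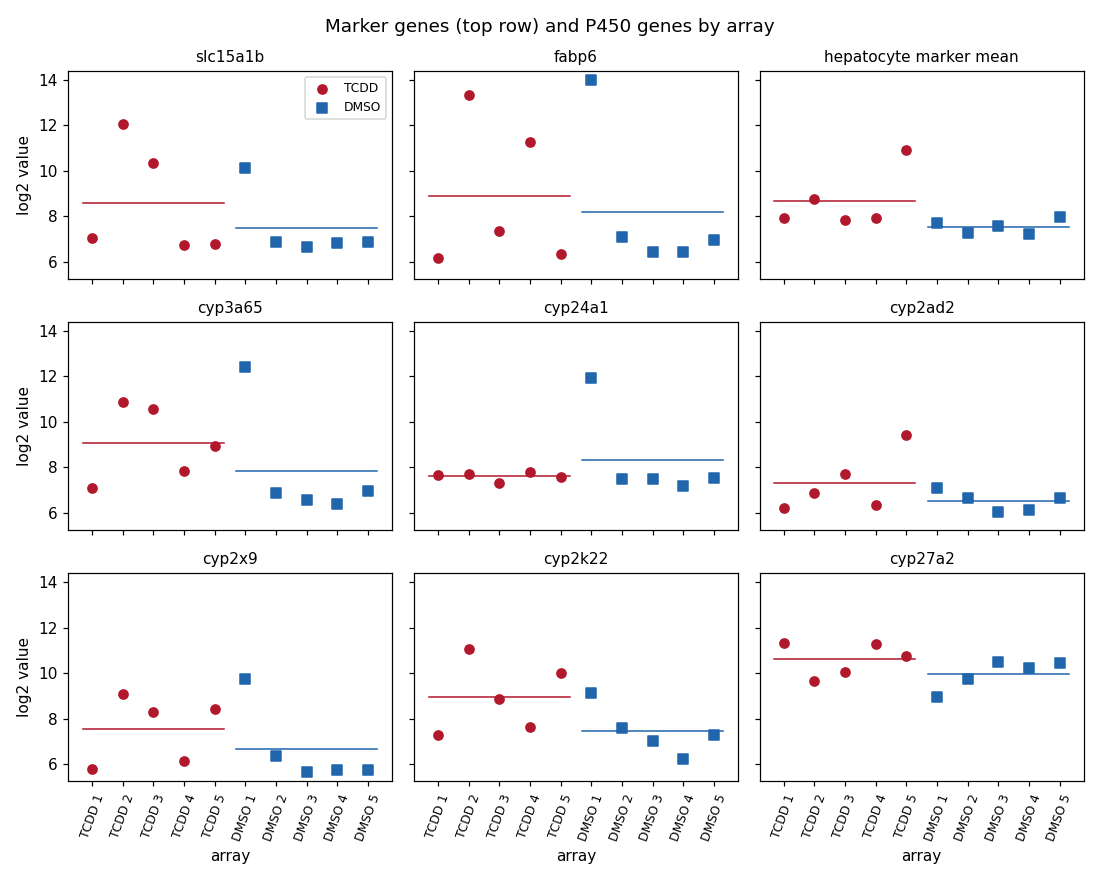
Log2 values in each array (TCDD circles, DMSO squares, lines at group means) of 2 intestine markers and the hepatocyte marker mean in the top row and of 6 P450 genes below. cyp3a65 exceeds 10 in the arrays where slc15a1b does, cyp24a1 is at 11.94 in DMSO 1 and at most 7.81 elsewhere, and cyp27a2 is lowest in DMSO 1.

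Genes of the cyp2k subfamily, of which the best known is cyp2k6, an enzyme shown to oxidise lauric acid and aflatoxin, were all highest in DMSO 1 except cyp2k22. cyp2k6 was at 5.67, 6.22, 6.17, 6.68 and 6.31 in TCDD 1 to 5 and 9.29, 6.55, 6.78, 6.77 and 6.27 in DMSO 1 to 5. It was 2.51 above the next array in DMSO 1, while TCDD 2, with an intestine marker mean close to that of DMSO 1, was at 6.22. The part of other tissues in the cyp2k6 values was not tested. cyp2k21 was at 5.26, 7.81, 7.54, 5.60 and 5.75 in TCDD 1 to 5 and 8.52, 5.95, 4.41, 5.36 and 5.95 in DMSO 1 to 5, and so was high in TCDD 2 and TCDD 3 as well. cyp2k22, which lies apart from the run of 7 neighbouring cyp2k genes, was at 7.27, 11.04, 8.86, 7.61 and 9.99 in TCDD 1 to 5 and 9.10, 7.58, 7.03, 6.23 and 7.28 in DMSO 1 to 5. Its highest values were in TCDD 2 and TCDD 5, and its difference of 1.51 (95% CI -0.12 to 3.14) was the largest of the 61 genes. The means (± SD, n = 5 each) were 8.95 ± 1.59 in TCDD and 7.45 ± 1.05 in DMSO. The other 5 cyp2k genes had their values in DMSO 1 between 6.21 and 10.60 and exceeded the next array there by 0.78 to 2.49.

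The 4 neighbouring cyp2x genes, of a subfamily known from fish, differed in their spread. cyp2x9 was at 5.78, 9.07, 8.30, 6.12 and 8.44 in TCDD 1 to 5 and 9.75, 6.35, 5.65, 5.74 and 5.76 in DMSO 1 to 5, with its 4 high values in DMSO 1, TCDD 2, TCDD 5 and TCDD 3, and cyp2x8, its neighbour, was above 8 in 3 of these arrays. cyp2x6 and cyp2x7 of the same run ranged only from 5.27 to 6.02 and from 6.18 to 7.18. cyp2y3, of another fish subfamily, was at 5.41, 7.54, 5.88, 5.92 and 8.50 in TCDD 1 to 5 and 10.37, 5.36, 5.10, 5.46 and 5.70 in DMSO 1 to 5, high in DMSO 1, TCDD 5 and TCDD 2, and its second probe differed by -0.43 between groups where the first differed by 0.26.

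The cyp2n, cyp2p, cyp2j and cyp2ad genes are relatives of mammalian CYP2J, whose products include epoxides of arachidonic acid, and 10 of them lie in one run of neighbours. Of these, 8 were highest in DMSO 1, cyp2p10 was lowest there, and cyp2ad2 was highest in TCDD 5. cyp2ad2 was at 6.20, 6.86, 7.72, 6.35 and 9.44 in TCDD 1 to 5 and 7.10, 6.64, 6.02, 6.12 and 6.63 in DMSO 1 to 5. Its value in TCDD 5 exceeded the next array by 1.72, and its difference of 0.81 (95% CI -0.39 to 2.02) became 0.28 without TCDD 5. cyp2n13 ranged from 5.59 to 7.67, cyp2ad3 from 6.75 to 8.29 and cyp2j20 from 5.61 to 7.16, each highest in DMSO 1 with TCDD 2 second. The remaining genes, cyp2p6 to cyp2p9 and cyp2ad6, had differences between -0.16 and 0.51.

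**Figure D4:**
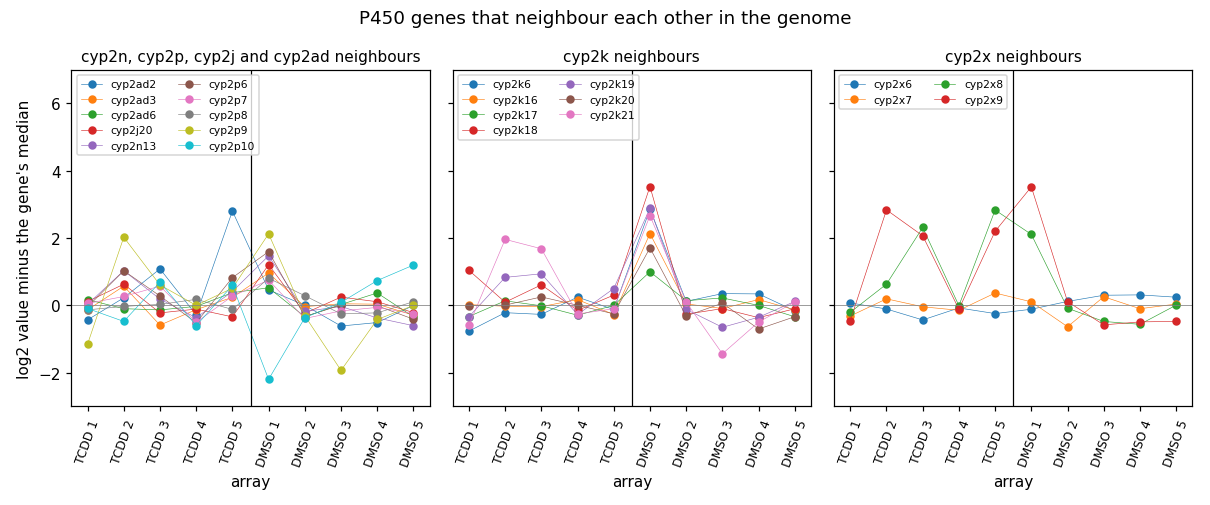
P450 genes in 3 runs of neighbouring genes, as the log2 value minus each gene's median, with 1 point per array. In the run of 10, cyp2p10 is lowest in DMSO 1 while 8 neighbours are highest there, and in the run of 4 cyp2x genes cyp2x8 and cyp2x9 span more than 3 while cyp2x6 and cyp2x7 span 1.00 or less.

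The 9 cyp2aa genes, a tandem subfamily of fish, were mostly dim, with 7 of 9 below the median probe, against 18.5% of all genes. Apart from cyp2aa12, whose levels were 7.26, 8.14, 8.01, 7.22 and 8.04 in TCDD 1 to 5 and 9.19, 7.15, 6.93, 7.22 and 7.39 in DMSO 1 to 5, their ranges over the arrays were 0.51 to 1.55. cyp2aa8 (probe 13142790) was at 5.82, 6.45, 6.38, 6.04 and 6.01 in TCDD 1 to 5 and 6.48, 6.59, 6.35, 6.80 and 6.43 in DMSO 1 to 5. Its 3 lowest values were in TCDD 1, TCDD 5 and TCDD 4, while TCDD 2 and TCDD 3 overlapped with DMSO, and its difference was -0.39 (95% CI -0.72 to -0.061). Of 3 further family 2 genes, each the only member of its subfamily here, cyp2r1, whose enzyme takes the first step of vitamin D activation, ranged from 6.69 to 7.40, cyp2u1, whose human counterpart hydroxylates long-chain fatty acids, from 7.12 to 7.82, and cyp2ae1 from 7.50 to 8.64, and their differences were 0.078, 0.013 and 0.056.

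Among family 4 genes, which encode fatty acid omega-hydroxylases, 3 of 4 varied widely and cyp4f3 did not. cyp4t8 lay between 7.24 and 9.89 in TCDD and between 7.48 and 11.24 in DMSO, with DMSO 1, TCDD 2 and TCDD 5 highest in that order. cyp4v2b was at 6.59, 8.49, 8.31, 6.72 and 8.40 in TCDD 1 to 5 and 8.91, 6.75, 6.56, 6.35 and 6.35 in DMSO 1 to 5, and cyp4v2a at 6.65, 8.71, 7.10, 6.37 and 8.86 in TCDD 1 to 5 and 9.40, 6.77, 6.48, 6.13 and 6.66 in DMSO 1 to 5. Both cyp4v2 genes were above 8 in DMSO 1, TCDD 2 and TCDD 5. The intestine mean was high in DMSO 1 and TCDD 2, and the hepatocyte mean in TCDD 5. In TCDD 3, with an intestine mean of 9.22, cyp4v2b was above 8 too, while cyp4v2a was at 7.10. Any part of other tissues in the cyp4v2 values was not tested. cyp4f3, related to the human leukotriene hydroxylase, ranged only from 7.26 to 7.94. The differences were 0.72 (95% CI -0.53 to 1.97) for cyp4v2b, 0.45 (95% CI -1.06 to 1.96) for cyp4v2a, 0.078 (95% CI -1.52 to 1.68) for cyp4t8 and -0.094 (95% CI -0.40 to 0.21) for cyp4f3.

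Genes of cholesterol breakdown and bile acid synthesis showed no common direction. cyp7a1, the rate-limiting enzyme of bile acid synthesis in mammals, was dim at 5.96, 6.24, 6.22, 6.16 and 6.10 in TCDD 1 to 5 and 6.31, 6.39, 5.71, 5.70 and 6.13 in DMSO 1 to 5, and its second copy cyp7a1b ranged from 7.52 to 8.08. cyp7b1, the oxysterol hydroxylase gene, had the smallest spread of the 61 genes, from 7.52 to 7.97. In TCDD 5, where the hepatocyte mean was 10.90, cyp7a1 was at 6.10, below its values in DMSO 1, DMSO 2 and DMSO 5. The part of liver tissue in these values was not tested. The differences of cyp7a1, cyp7a1b and cyp7b1 were 0.091 (95% CI -0.26 to 0.44), -0.019 (95% CI -0.31 to 0.27) and 0.029 (95% CI -0.25 to 0.30). cyp39a1, an oxysterol hydroxylase gene of the liver in mammals, was at 7.22 in TCDD 5 and from 5.87 to 6.44 elsewhere, and its difference was 0.062. The 4 neighbouring copies of cyp46a1, a cholesterol hydroxylase gene of mammalian brain, were each highest in DMSO 1, at 7.27 to 8.86, with differences of 0.11, 0.026, -0.20 and -0.40 for copies cyp46a1.1 to cyp46a1.4. The 3 neighbouring copies of cyp27a1 each had another highest array. cyp27a1.1 was highest in DMSO 1 (8.92) and TCDD 2 (8.06), cyp27a1.4 in TCDD 5 (6.80), and cyp27a1.2 in DMSO 2 (6.58), with differences of 0.0094, -0.023 and -0.53 (95% CI -0.99 to -0.07).

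Genes of vitamin D metabolism were represented by cyp2r1, above, and by cyp27b1 and cyp24a1, which make and break down the active hormone. cyp24a1 (probe 13217327) was at 7.65, 7.70, 7.32, 7.81 and 7.59 in TCDD 1 to 5 and 11.94, 7.48, 7.48, 7.18 and 7.54 in DMSO 1 to 5. DMSO 1 thus exceeded all other arrays by 4.13, and TCDD 2, with nearly the same intestine marker mean, was at 7.70. The part of other tissues in the cyp24a1 values was not tested. The difference of -0.71 (95% CI -2.45 to 1.03) became 0.20 (95% CI -0.093 to 0.48) without DMSO 1. cyp27b1 was at 6.67, 7.32, 6.85, 6.89 and 6.46 in TCDD 1 to 5 and 6.84, 6.58, 6.94, 6.54 and 6.55 in DMSO 1 to 5, with TCDD 2 highest and a difference of 0.15 (95% CI -0.22 to 0.51). The vitamin D receptor genes vdra and vdrb, which act on cyp24a1 in other tissues, differed by 0.13 (95% CI -0.41 to 0.68) and 0.22 (95% CI -0.54 to 0.99).

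The comparison of TCDD with DMSO asks whether brief exposure before maturity is followed by altered P450 expression in the adult testis. In a limma fit across all genes, 0 of 61 P450 genes passed a Benjamini-Hochberg adjusted p of 0.05 (0% of all 19260 genes did), and the adjusted p of each P450 gene was 1.00. Without adjustment, 3 P450 genes (4.92%) had a limma p under 0.05, against 2.48% of all genes. All 3 were lower in TCDD, where the share of all genes was 1.68%. They were cyp2aa8, described above, cyp27a1.2 and cyp2x6, and 0 of them passed the adjustment. The unadjusted p of cyp2x6 was not under 0.05 after quantile normalization or median centring, nor was that of cyp27a1.2 when its 2 probes were averaged. cyp27a1.2 (probe 13268666) was at 5.65, 5.90, 5.28, 5.46 and 5.53 in TCDD 1 to 5 and 5.70, 6.58, 5.58, 6.21 and 6.40 in DMSO 1 to 5, with means (± SD, n = 5 each) of 5.56 ± 0.23 in TCDD and 6.09 ± 0.44 in DMSO. TCDD arrays lay at or below 5.90 and overlapped with DMSO 1 and DMSO 3. The second probe of cyp27a1.2 was dimmer, with a mean of 3.59 against 5.83, and differed by -0.067. The 2 probes did not vary together, with a correlation of -0.11 over the 10 arrays. cyp2x6 (probe 13161124) was at 5.78, 5.60, 5.27, 5.63 and 5.46 in TCDD 1 to 5 and 5.59, 5.82, 6.01, 6.02 and 5.95 in DMSO 1 to 5, a difference of -0.33 (95% CI -0.62 to -0.039), with DMSO 1 inside the range of TCDD. The signals of the 3 probes lay at percentiles of 40.9, 31.3 and 29.4 among all probes, below the median.

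No P450 gene had groups that did not overlap (0 of 61, against 0.493% of all genes). Of the 61 genes, 37 lay higher and 24 lower in TCDD, with a median difference of 0.055, while 54.6% of all genes lay higher with a median of 0.018. The split was not stable, with 49 higher and 12 lower without DMSO 1, 26 higher and 35 lower without TCDD 5, and 10 higher and 51 lower with the hepatocyte and intestine means as covariates. Among all genes 47.4%, 55.0% and 58.6% lay higher in these fits. A difference of at least 1.5-fold was seen in 9 P450 genes (14.8%, against 2.32% of all genes), 7 higher and 2 lower, and each of the 9 had an interval that included 0. Besides cyp2k22, cyp2ad2 and cyp27a2, the members with the smallest p included cyp2k6, at -0.93 (95% CI -2.03 to 0.18), which became -0.39 (95% CI -0.82 to 0.041) without DMSO 1. The median standard error of a difference was 0.28 for P450 genes and 0.18 for all genes, so that these arrays resolve P450 differences less finely than those of most genes.

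The counts depended on DMSO 1. Without it, 14 P450 genes (23.0%) had an unadjusted limma p under 0.05, against 6.65% of all genes, and 0 passed the adjustment (smallest adjusted p = 0.716). Of the 14, 11 were higher in TCDD, while 704 of the 1280 genes at that level among all genes were higher. DMSO 1 held the highest value of 40 P450 genes (65.6%, against 22.9% of all genes), so leaving it out lowered their DMSO means. More genes higher in TCDD followed in part from that choice of array, and the share is not read as an effect of TCDD. cyp3a65 differed by 2.38 (95% CI 0.85 to 3.91) and its groups no longer overlapped, with TCDD from 7.11 to 10.88 and DMSO 2 to 5 from 6.37 to 6.95. cyp2k22 differed by 1.92 (95% CI 0.40 to 3.45), cyp4v2b by 1.20 (95% CI 0.29 to 2.11), cyp2x9 by 1.67 (95% CI 0.28 to 3.06), cyp2y3 by 1.25 (95% CI 0.024 to 2.47) and cyp3c1 by 0.45 (95% CI 0.076 to 0.83). The others higher in TCDD were cyp2aa6, cyp2aa12, cyp2k18, cyp2n13 and cyp2x8, and cyp27a1.2, cyp2aa8 and cyp2x6 were again lower. The groups of cyp2x6 did not overlap either, so that 2 of 61 genes were separated, against 2.51% of all genes. The arrays that carry the higher values of cyp3a65, cyp2x9 and cyp4v2b are TCDD 2, TCDD 3 and TCDD 5, in which the intestine or hepatocyte means were the highest among the remaining arrays. The part of these tissues in the differences was not tested, and the covariates of the fit below are marker means of the same arrays.

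A further limma fit over all 10 arrays took the hepatocyte and intestine means as covariates. The markers of both lists mostly lay higher in TCDD (17 of 17 and 15 of 16, against 54.6% of all genes). The covariates thus overlap with the exposure, and the 2 cannot be fully told apart in these differences. In this fit, 10 P450 genes (16.4%) had an unadjusted limma p under 0.05, against 6.78% of all genes. Of the 10, 2 were higher and 8 lower in TCDD, while among all genes at that level 770 were higher and 536 lower. After limma adjustment, 0 P450 genes passed (smallest adjusted p = 0.551). The smallest p was that of cyp46a1.4, whose difference was -1.13 (95% CI -1.60 to -0.67) in that fit and -0.40 without the covariates. cyp2y3 (-1.49), cyp2k6 (-1.32), cyp4v2a (-0.86), cyp3c3 (-0.73), cyp27a1.1 (-0.66), cyp2k17 (-0.52) and cyp39a1 (-0.36) were the others lower in TCDD, and cyp27a2 (0.99) and cyp20a1 (0.41) were higher. cyp2aa8, cyp27a1.2 and cyp2x6 were not among the 10, and the difference of cyp3a65 was -0.050. With TCDD 2, TCDD 5 and DMSO 1 all left out, the count was 5 of 61 (8.20%), against 5.91% of all genes. These were cyp3a65, cyp2k18, cyp27a1.2, cyp2aa8 and cyp2x6, the first 2 higher and the other 3 lower in TCDD. Among all genes at that level, 717 were higher and 421 lower. cyp3a65 differed by 1.82 (95% CI 0.33 to 3.30) in that fit, which rests on 7 arrays. TCDD 3 was kept, with an intestine marker mean of 9.22 and cyp3a65 at 10.56. The other TCDD arrays kept, TCDD 1 and TCDD 4, had cyp3a65 at 7.11 and 7.84. The groups of 2 P450 genes (cyp3a65 and cyp2x6) did not overlap in that fit, against 6.28% of all genes.

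**Figure D5:**
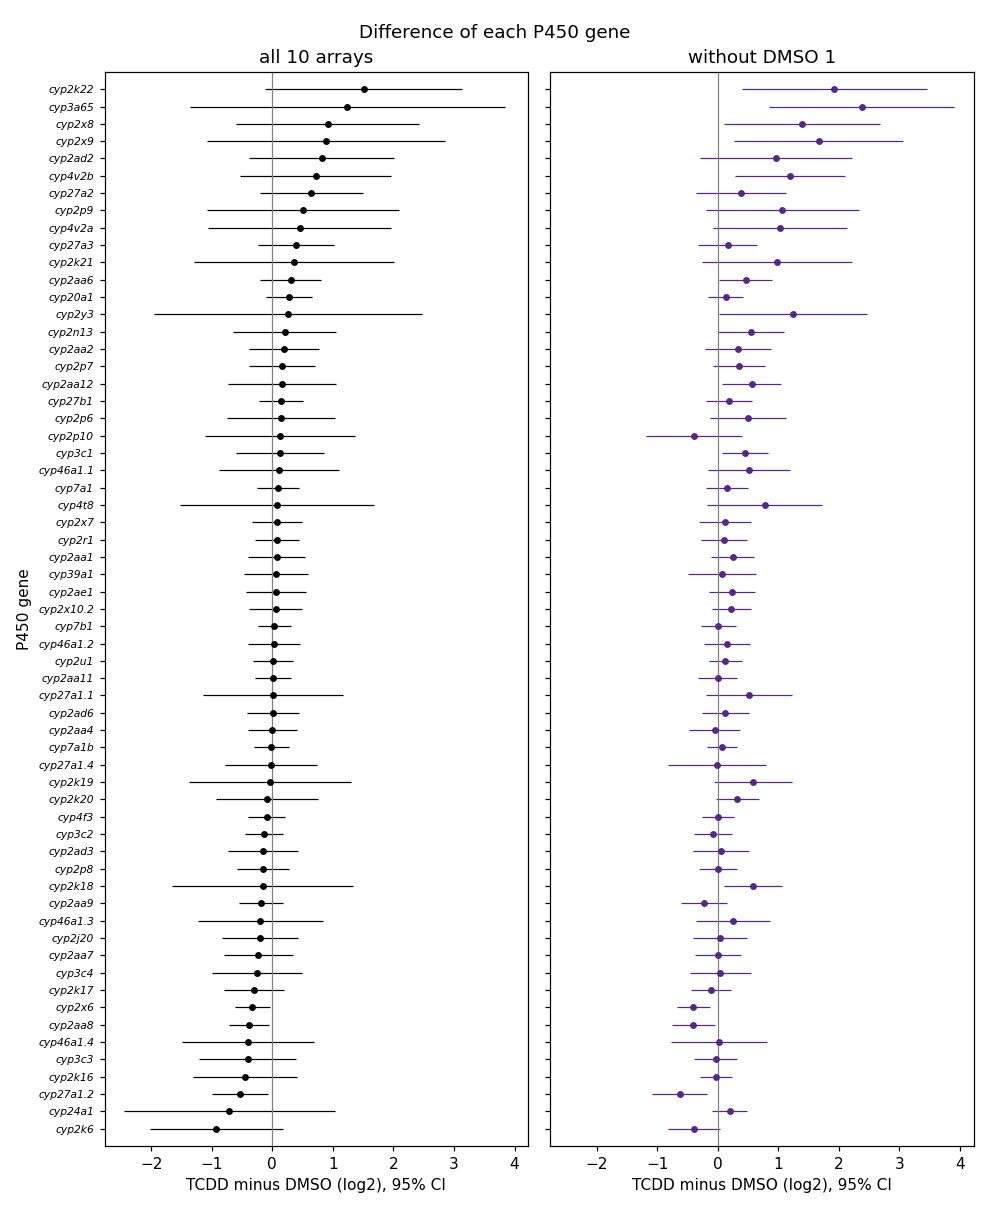
TCDD minus DMSO difference on the log2 scale with its 95% confidence interval from limma for each of the 61 P450 genes, over all 10 arrays (left) and without DMSO 1 (right). Over all arrays 58 intervals include 0, and without DMSO 1 14 intervals exclude it, 11 of them above 0.

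Partners and regulators of the P450 enzymes were read from 4 further lists. Among all genes, 54.6% lay higher in TCDD and 2.48% had an unadjusted limma p under 0.05. Of 15 measured genes of 17 listed for electron transfer and heme, 11 lay higher and 4 lower in TCDD (median 0.14), and 0 had an unadjusted limma p under 0.05. alas1, which encodes the first enzyme of heme synthesis, was at 10.80, 11.37, 10.19, 10.22 and 10.55 in TCDD 1 to 5 and 10.60, 9.99, 10.22, 10.11 and 9.92 in DMSO 1 to 5, highest in TCDD 2, and differed by 0.46 (95% CI -0.05 to 0.97). The cytochrome b5 reductase gene cyb5r3 differed by -0.27 (95% CI -0.56 to 0.02), the ferredoxin gene fdx1b by 0.38 (95% CI -0.26 to 1.03) and the ferredoxin reductase gene fdxr by 0.23 (95% CI -0.16 to 0.62), where fdx1b was lowest in DMSO 1 (5.83). Of 27 measured regulators of 29 listed, 25 lay higher (median 0.14), again with 0 at that level. nr0b2b differed by -0.27 (95% CI -0.58 to 0.047), and the liver and gut factor gene hnf4a was at 5.86, 8.50, 7.16, 6.08 and 7.91 in TCDD 1 to 5 and 8.90, 5.81, 5.91, 5.88 and 5.50 in DMSO 1 to 5, high in DMSO 1, TCDD 2, TCDD 5 and TCDD 3 like cyp2x9. hnf4a differed by 0.71 (95% CI -0.85 to 2.26) and nr1h5, a bile acid receptor relative, by 0.24 (95% CI -0.31 to 0.78), and ahr2, the main dioxin receptor of zebrafish, by 0.24 (95% CI -0.20 to 0.69).

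Bile acid genes outside the P450 family, 14 measured of 19 listed, lay higher in 7 and lower in 7 (median 0.025), with 0 at an unadjusted limma p under 0.05. Among all genes, 54.6% lay higher and 2.48% had such a p. The acyl-CoA synthetase gene slc27a2a differed by 0.97 (95% CI -0.31 to 2.26), slc51a of bile acid export by 0.38 (95% CI -0.22 to 0.98), the canalicular bile salt pump gene abcb11b by 0.27 (95% CI -0.25 to 0.78), with its highest value in TCDD 5 (7.74), and fgf19 by -0.17 (95% CI -0.49 to 0.16). Eicosanoid and epoxide enzymes, 18 of 18 measured, lay higher in 12 and lower in 6 (median 0.031), with 0 at that level. ephx1, the microsomal epoxide hydrolase that acts on products of P450 enzymes, was at 10.23, 10.03, 11.31, 10.99 and 11.67 in TCDD 1 to 5 and 9.69, 9.84, 10.44, 10.44 and 10.92 in DMSO 1 to 5, and its TCDD and DMSO arrays overlapped, with a difference of 0.58 (95% CI -0.18 to 1.33). The phospholipase genes pla2g4ab and pla2g4aa differed by -0.20 (95% CI -0.67 to 0.28) and 0.13 (95% CI -0.19 to 0.45), and alox5b.1 by 0.13 (95% CI -0.22 to 0.49). The lists held 0 genes past the limma adjusted threshold, which 0% of all genes passed.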

How the data were processed

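RNA of 10 testis samples, 5 TCDD and 5 DMSO, was biotin-labelled and hybridised to a whole-transcript Affymetrix array, per the labels' protocols. The authors deposited 1 normalized value per probe and array, read here as log2 from the range; the normalization, the summary of probes, the tools and the genome build were not stated in the sources read. Array medians ran from 6.71 to 6.87. Of 75212 probes, 20806 carried 1 gene symbol, 855 several and 53551 none in the platform annotation, and 60 of the 61 P450 genes matched a current gene entry. The brightest probe stood for each gene, so that 65 P450 probes gave 61 genes, and 14 P450 genes of the excluded families were not used. The 4 genes with a second probe were cyp27a1.2, cyp2aa12, cyp2x10.2 and cyp2y3, and the sign of the second probe's difference opposed the first for cyp2aa12 and cyp2y3.

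TCDD was compared with DMSO by limma 3.58.1 in R 4.3.3, without a block, over all 19260 genes with Benjamini-Hochberg adjustment at 0.05, and the fit was tested on simulated data. Neighbouring genes had at most 2 protein-coding genes between them in the reference annotation. Genes named with values were the 8 with the smallest p, the 6 with the largest spread, the brightest of each subfamily, and a fixed set of cyp3, cyp4v, vitamin D, bile acid and orphan genes. cyp27a3, cyp2k16 to cyp2k20, cyp2x8 and others outside the rule were named after their values were seen. The members and lists were chosen with earlier results of these data known. Alternatives were other normalizations, variance models, array weights, leaving out dim genes, averaging a gene's probes, marker covariates and arrays left out.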

Additional observations from a re-analysis of the deposited data

Results flagged for a closer look

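In a group of 5 arrays, a value was marked when its gap to the nearest array of the group, divided by the group's range, exceeded Dixon's critical value of 0.71, which chance exceeds in about 1 of 20 groups. Of 122 groups (61 genes in TCDD and in DMSO), 25 (20.5%) were marked, each by a high value, and 21 of these were in DMSO 1. Over all genes, 11.3% of groups were marked. A high DMSO 1 marked 34.4% of the DMSO groups of P450 genes and 7.14% of those of all genes, where a low DMSO 1 marked 6.85%. The genes share arrays, so their marks are not independent. In family 2, the marked values of DMSO 1 were 9.19 for cyp2aa12, 8.29 for cyp2ad3, 8.05 for cyp2k16, 8.55 for cyp2k18, 10.60 for cyp2k19, 9.29 for cyp2k6, 7.67 for cyp2n13, 8.70 for cyp2p6, 7.16 for cyp2p7, 8.09 for cyp2x8, 9.75 for cyp2x9 and 10.37 for cyp2y3. In the other families, they were 11.94 for cyp24a1, 8.92 for cyp27a1.1, 12.39 for cyp3a65, 9.19 for cyp3c1, 8.83 for cyp3c3, 7.94 for cyp4f3, 11.24 for cyp4t8, 9.40 for cyp4v2a and 8.91 for cyp4v2b. The remaining 4 values were 6.64 for cyp2aa11 in DMSO 2, 6.57 for cyp2aa4 in DMSO 2, 7.22 for cyp39a1 in TCDD 5 and 7.97 for cyp7b1 in DMSO 3. In DMSO 1 the intestine, exocrine pancreas and adipose marker means were the highest and the germ cell, Sertoli and Leydig means the lowest of all arrays. In TCDD 5 the hepatocyte mean was the highest. Their part in these values was not tested.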

How the results depend on the processing

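Under every alternative run, 0 P450 genes passed the adjusted limma threshold. The count at an unadjusted limma p under 0.05, 3 over all arrays, was 11 with array weights (7.27% of all genes), 10 with the marker means as covariates (6.78%), 5 with TCDD 2, TCDD 5 and DMSO 1 left out together (5.91%), and 0 among the 32 P450 genes brighter than the median probe (1.63%), a filter that removes the 3 called genes. Leaving out 1 array at a time gave 0 to 14 such genes and 0 to 2 genes whose groups did not overlap, with the highest counts (14 and 2) without DMSO 1, where 6.65% and 2.51% of all genes did so. Without each other array, 0 to 4 P450 genes and at most 3.41% of all genes had such a p. The count was 4 without TCDD 2, 1 without TCDD 3, TCDD 5 or DMSO 5, and 0 without DMSO 4. With the 3 arrays left out together, 2 genes did not overlap, against 6.28% of all genes. The median difference ran from -0.022 (without TCDD 5) to 0.16 (without DMSO 1), and was -0.24 with the covariates. The fit with the replicate number as a block gave 0 and 2 genes and a median of 0.055, and ended the unadjusted call of cyp2x6, as did quantile normalization and median centring, while averaging probes ended that of cyp27a1.2. Same-numbered samples deviated together with correlations of -0.58 to 0.29. No TCDD sample correlated best with the DMSO sample of its own number, so the numbers were not taken as pairs. Median centring gave 40 genes higher and 21 lower, with 64.8% of all genes higher. Of the 61 genes, the sign turned for 7 with array weights, 29 with the covariates, 15 with the 3 arrays left out, 3 with median centring, 2 with quantile normalization and 1 with probes averaged. The values that follow are those of the 40 genes named by rule. With array weights, the sign turned for cyp24a1 (0.020), cyp2p10 (-0.24), cyp46a1.3 (0.27) and cyp7a1b (0.032). With the hepatocyte and intestine means as covariates, the sign turned for cyp27a1.1 (-0.66), cyp2aa12 (-0.39), cyp2ad2 (-0.23), cyp2ae1 (-0.054), cyp2k21 (-0.21), cyp2n13 (-0.27), cyp2u1 (-0.10), cyp2x9 (-0.47), cyp2y3 (-1.49), cyp39a1 (-0.36), cyp3a65 (-0.050), cyp3c1 (-0.30), cyp46a1.1 (-0.28), cyp46a1.2 (-0.29), cyp4t8 (-0.89), cyp4v2a (-0.86), cyp4v2b (-0.16) and cyp7b1 (-0.039). With the probes of each gene averaged, the sign turned for cyp2y3 (-0.086). With median centring, the sign turned for cyp27a1.4 (0.018) and cyp7a1b (0.022). With quantile normalization, the sign turned for cyp27a1.4 (0.064). With TCDD 2, TCDD 5 and DMSO 1 left out together, the sign turned for cyp24a1 (0.17), cyp2p10 (-0.42), cyp39a1 (-0.19), cyp46a1.2 (-0.046), cyp46a1.3 (0.055), cyp7a1b (0.0066) and cyp7b1 (-0.033). Leaving out 1 array at a time turned the sign of some genes, with differences of -0.99 to 0.20 for cyp24a1, -0.27 to 0.51 for cyp27a1.1, -0.29 to 0.19 for cyp27a1.4, -0.0059 to 0.56 for cyp2aa12, -0.29 to 0.054 for cyp2ad3, -0.053 to 0.24 for cyp2ae1, -0.36 to 0.037 for cyp2j20, -0.053 to 0.97 for cyp2k21, -0.39 to 0.46 for cyp2p10, -0.048 to 0.13 for cyp2u1, -0.21 to 1.25 for cyp2y3, -0.17 to 0.16 for cyp39a1, -0.41 to 0.046 for cyp3c4, -0.12 to 0.51 for cyp46a1.1, -0.091 to 0.16 for cyp46a1.2, -0.40 to 0.25 for cyp46a1.3, -0.69 to 0.021 for cyp46a1.4, -0.17 to 0.0025 for cyp4f3, -0.26 to 0.77 for cyp4t8, -0.069 to 0.071 for cyp7a1b and -0.023 to 0.11 for cyp7b1. The causes of these changes were not tested. The number of arrays limits precision, and 29 of the 61 probes lay below the median of all probes, while 18.5% of all genes did.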
